A study of Mus musculus with 8 samples.

Results

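Activins and inhibins are secreted dimers built from a shared set of subunits, and 10 genes of this pathway were followed here through testes that lack the transcription factor DMRT6. The genes were taken by symbol: the ligand subunits Inha, Inhba and Inhbb, the binding proteins Fst and Fstl3, the receptors Acvr2a, Acvr2b and Acvr1b, and the signal transducers Smad2 and Smad3. All 10 were found among the 22744 genes of the expression table, and all 10 were among the 16634 that entered the test. The study holds 8 mouse samples and asked which transcripts depend on DMRT6, encoded by Dmrtb1, and where the protein binds. RNA came from testis at postnatal day 8 (P8), with 3 wild-type and 3 Dmrt6 null libraries, both on the C57BL/6 background. Adult wild-type testis, of a background labelled C57BL/6, Mixed, gave the other 2 samples, 1 library of chromatin immunoprecipitated with rabbit antibodies against DMRT6 (ChIP) and 1 of input. The labels give no further detail of the null allele and do not say whether a library came from 1 animal or a pool. The p-values therefore measure the spread between these libraries, part of which may be technical.

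An activin is a dimer of beta subunits, whereas an inhibin joins the alpha subunit to a beta subunit and opposes activin action. Activin binds a type II receptor, which recruits and activates a type I receptor, and the latter phosphorylates SMAD2 and SMAD3, which then act in the nucleus with SMAD4. Follistatin and follistatin-like 3 bind activins and keep them from their receptors. In the testis, Sertoli cells make inhibin B, the dimer of the alpha and beta B subunits, which lowers release of follicle-stimulating hormone by the pituitary, and activin A, the beta A dimer, promotes Sertoli cell proliferation before puberty.

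The libraries held 23.8 to 29.0 M reads. Values are deposited log2 CPM, which are read counts divided by a scaling size of each library, and reads are the whole counts recovered from them. The scaling size was not exactly the read total. In null replicate 3 it was 25.8 M, below the 26.3 M recovered reads. Dmrtb1 was at 8.15 to 17.4 CPM in wild type and at 0.542 to 1.02 CPM in null (adjusted p = 0.0516 in limma over all genes). All 12 Sertoli cell markers and all 7 germ cell markers entered the test. Among genes of ovary and pituitary, Zp3 lay between 0.34 and 1.13 log2 CPM, Foxl2 and Gh were below the level needed for the test, and Prl and Fshb are not in the table. Null replicate 3 stood apart from the rest. It was the highest library for 34.5% of tested genes and the lowest for 34.0%, and its median over tested genes was 4.88 log2 CPM where the other libraries were at 4.72 to 4.75. These are whole testes, so fewer cells of a type and less RNA per cell cannot be told apart.

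None of the 10 genes passed the test between the genotypes. The test was limma on the log2 CPM of all 16634 genes with an adjusted p below 0.05, which 1 gene, Gm5859, or 0.00601%, passed. At an unadjusted p below 0.05 the count was 0 of 10, against 3.47% of all tested genes. The 2 genotypes overlapped for all of them, so that 0 of 10 were separated, against 11.1% of tested genes. Of the 10, 8 had a higher and 2 a lower mean in null, where 8592 of 16634 tested genes had a higher mean. Without null replicate 3 the count was 6 of 10 higher, and with median centring it was also 6. The median difference of the 10 was 0.06 log2 units, where the median over all tested genes was 0.01. The voom fit on recovered reads also called 0 of the 10. The smallest adjusted p among them was 0.755, and over the 14 alternatives to the main fit it was at least 0.109.

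**Figure D1:**
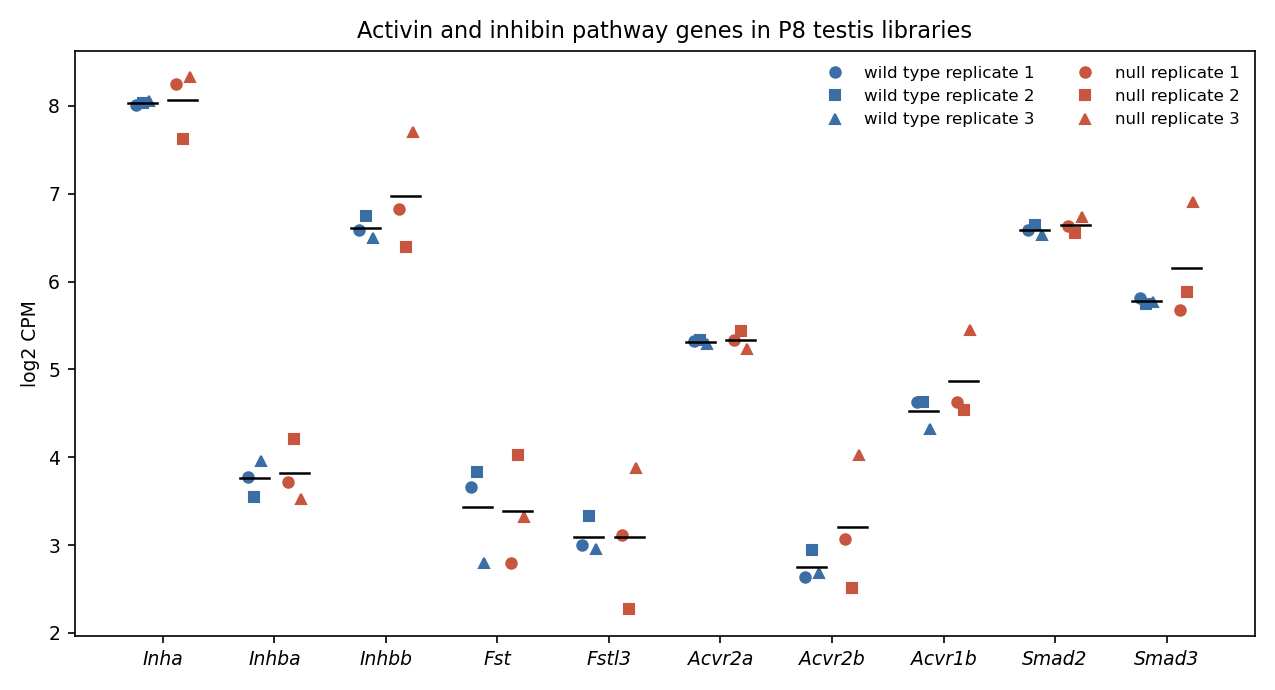
Log2 CPM of the 10 genes in the 6 P8 testis libraries, with wild type in blue, null in red, 1 symbol shape per replicate number and a black line at each mean of 3 libraries. The values are not scaled to transcript length, so heights of different genes are not comparable. Null replicate 3, the red triangle, lies above the other 5 libraries for 7 genes, and the 2 genotypes overlap for all 10.

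Inha encodes the alpha subunit found only in inhibins, and it was nearly level in wild type but not in null (ENSMUSG00000032968, mm9 chromosome 1, 75503652 to 75506941, plus strand). Wild-type replicates 1 to 3 stood at 8.01, 8.04 and 8.05 log2 CPM, and null replicates 1 to 3 at 8.25, 7.63 and 8.33. Null replicates 1 and 3 lay above all wild-type libraries and null replicate 2 below them. The wild-type mean was 8.03 ± 0.02 and the null mean 8.07 ± 0.38 (SD, n = 3 each). The difference was 0.04 log2 units (SE 0.17), or 1.02 times wild type with a 95% interval of 0.776 to 1.35, and it did not pass (adjusted p = 0.948, limma). With 5458 to 8265 reads per library, counting error alone gives an SD of 0.02 log2 units, which is close to the wild-type spread and far below the null spread.

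Inhbb encodes the beta B subunit of inhibin B and activin B (ENSMUSG00000037035, chromosome 1, 121312042 to 121318825, minus strand). In the same order, wild type stood at 6.58, 6.75 and 6.50 log2 CPM and null at 6.82, 6.40 and 7.71. The value in null replicate 3 was 0.89 log2 units above the next highest library, and null replicate 2 was the lowest of the 6. As reads, null replicate 3 held 5390 and the other 5 libraries 2285 to 3150. The difference between genotypes was 0.37 (SE 0.29, adjusted p = 0.755 in limma), or 1.29 times wild type with an interval of 0.812 to 2.04. Without null replicate 3 the difference was -0.00 (SE 0.13).

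Inhba encodes the beta A subunit of activin A and inhibin A (ENSMUSG00000041324, chromosome 13, 16103684 to 16119044, plus strand). Wild type stood at 3.77, 3.55 and 3.96 log2 CPM and null at 3.72, 4.21 and 3.53. Here null replicate 2 was the highest library and null replicate 3 the lowest, which is the reverse of Inhbb and Inha. Null replicate 3 lay only 0.02 log2 units below wild-type replicate 2, where counting error alone gives an SD of 0.08. The means were 3.76 ± 0.21 and 3.82 ± 0.35 (SD, n = 3), a difference of 0.06 (SE 0.21, adjusted p = 0.923 in limma).

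Because both beta subunits can pair with the alpha subunit, the log2 ratio of Inhbb to Inhba was taken within each library, where library size cancels and only shifts between libraries are read. It was 2.81, 3.20 and 2.54 in wild type and 3.10, 2.19 and 4.18 in null. The null libraries thus spanned a 3.97-fold range of the ratio and the wild-type libraries a 1.59-fold range, with null replicate 2 below and null replicate 3 above every wild-type library. The genotype means differed by 0.31 (two-sided exact permutation p = 0.8, where 3 libraries against 3 cannot give less than 0.1). The ratio of Inha to Inhbb was 1.43, 1.28 and 1.55 in wild type and 1.43, 1.23 and 0.62 in null (exact permutation p = 0.3). In null replicate 3 Inhbb therefore stood higher against Inha than in any other library. Of 7 such ratios, all chosen after the values were seen, the smallest exact permutation p was 0.1, for Fstl3 over Inhbb, and none can pass an adjustment over the 7.

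Fst encodes follistatin, the secreted protein that binds and neutralises activins (ENSMUSG00000021765, chromosome 13, 115242470 to 115249159, minus strand). It was at 3.66, 3.84 and 2.80 log2 CPM in wild type and at 2.80, 4.03 and 3.33 in null. The spread was wide in both genotypes, with an SD of 0.56 in wild type and 0.61 in null. Wild-type replicate 3 and null replicate 1 were the low libraries, with 191 and 183 reads, while the other 4 held 258 to 449. The difference was -0.05 (SE 0.36, adjusted p = 0.964 in limma), with an interval of 0.540 to 1.73 times wild type. With library weights it was -0.67 (SE 0.23, adjusted p = 0.109 in limma), in a fit where 28.4% of all tested genes had an unadjusted p below 0.05. Null replicate 1, the low null library for Fst, had a weight of 19.3 there, against 0.347 and 0.153 for null replicates 2 and 3. The weighted null value is thus mostly that of 1 library.

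Fstl3 encodes follistatin-like 3, a second activin-binding protein (ENSMUSG00000020325, chromosome 10, 79240017 to 79245375, plus strand). Wild type was at 3.00, 3.33 and 2.95 log2 CPM, and null at 3.12, 2.27 and 3.88. The 3 null libraries thus took the lowest and the highest place among the 6, 133 reads in replicate 2 and 379 in replicate 3. Both means were 3.09, with an SD of 0.21 in wild type and 0.80 in null. The difference of -0.00 (SE 0.37) rests on 2 null libraries that deviate in opposite directions: it was -0.40 (SE 0.26) without null replicate 3 and 0.41 (SE 0.26) without null replicate 2.

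Among the type II receptors, Acvr2a was nearly level (ENSMUSG00000052155, chromosome 2, 48669629 to 48758789, plus strand). It encodes a receptor that binds activin directly. Wild type stood at 5.32, 5.33 and 5.29 log2 CPM and null at 5.34, 5.44 and 5.24. The difference was 0.02 (SE 0.11, 95% interval -0.22 to 0.27).

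Acvr2b encodes the other activin type II receptor (ENSMUSG00000061393, chromosome 9, 119311562 to 119342619, plus strand). It had the largest difference of the 10 genes. The values were 2.64, 2.94 and 2.68 log2 CPM in wild type and 3.07, 2.51 and 4.03 in null. Null replicate 3 had 420 reads, or 16.3 CPM (exact 95% Poisson interval 14.8 to 18.0, counting error only). The next highest library, null replicate 1, had 8.41 CPM (7.34 to 9.60), and null replicate 2, the lowest, had 5.70 CPM (4.84 to 6.66). The gap between null libraries is therefore larger than counting error. The difference between genotypes was 0.45 (SE 0.35, adjusted p = 0.755 in limma), or 1.37 times wild type (0.778 to 2.40), and 0.04 (SE 0.22) without null replicate 3.

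Acvr1b encodes ALK4, the type I receptor for activin (ENSMUSG00000000532, chromosome 15, 101004556 to 101043032, plus strand). It had the smallest unadjusted p of the 10, 0.184 in limma. Wild type stood at 4.63, 4.63 and 4.32 log2 CPM and null at 4.63, 4.54 and 5.45. Null replicates 1 and 2 lay within or beside the wild-type range, and null replicate 3 lay 0.81 above the next highest library. The difference was 0.35 (SE 0.24) with all libraries and 0.06 (SE 0.14) without null replicate 3.

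The 2 receptor-regulated SMAD genes, whose products carry the activin signal to the nucleus, did not vary alike. Smad2 (ENSMUSG00000024563, chromosome 18, 76401234 to 76465385, plus strand) was at 6.59, 6.65 and 6.53 log2 CPM in wild type and 6.64, 6.55 and 6.74 in null, all within 0.20 log2 units. Its difference was 0.05 (SE 0.09, 95% interval -0.17 to 0.27), and it was 0.00284 without null replicate 3 and 0.0966 without null replicate 2. Smad3 (ENSMUSG00000032402, chromosome 9, 63494574 to 63605801, minus strand) was at 5.82, 5.75 and 5.77 in wild type and 5.68, 5.88 and 6.90 in null. As reads, Smad3 had 3083 in null replicate 3 and 1342 to 1626 elsewhere. The difference of 0.38 (SE 0.28, adjusted p = 0.755 in limma) became 0.00 (SE 0.10) without that library and 0.62 without null replicate 1. The log2 ratio of Smad3 to Smad2 was -0.77, -0.90 and -0.77 in wild type, -0.96 and -0.67 in null replicates 1 and 2, and 0.17 in null replicate 3 (exact permutation p = 0.5 between genotypes).

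**Figure D2:**
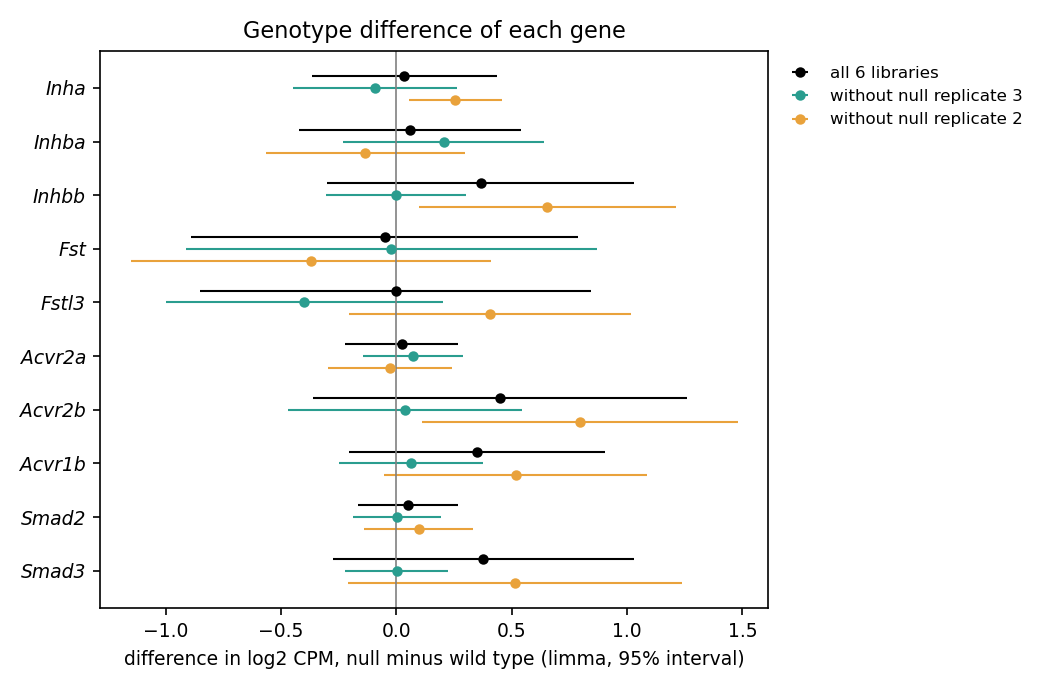
Difference in log2 CPM, null minus wild type, for each gene with its 95% limma interval, from all 6 libraries (black), without null replicate 3 (green) and without null replicate 2 (orange). The 4 differences of 0.35 to 0.45 in black (Inhbb, Acvr2b, Acvr1b and Smad3) lie between -0.00 and 0.06 in green.

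The differences of Inhbb, Acvr2b, Acvr1b and Smad3, all above 0.3 log2 units, were thus near 0 without 1 library. Null replicate 3 lay at least 0.5 log2 units above all 5 other libraries for 5 of the 10 genes, these 4 and Fstl3, a margin chosen after the values were seen. It did so for 12.3% of all tested genes, and no other library did so for any of the 10. The SD was larger in null than in wild type for 10 of 10 genes, and for 72.2% of tested genes. The median SD of the 10 genes was 0.15 in wild type and 0.56 in null, and over all tested genes it was 0.13 and 0.22. Without null replicate 2, Inha (0.26, SE 0.09), Inhbb (0.65, SE 0.24) and Acvr2b (0.80, SE 0.29) had an unadjusted p below 0.05, as did 15.3% of all tested genes in that fit. The smallest adjusted p of the 10 there was 0.324 (limma).

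Cell type markers also moved between these libraries. The 12 Sertoli markers summed to 3329 to 3522 CPM in wild type and to 2940 to 3836 in null, lowest in null replicate 2 and highest in null replicate 1. In null replicate 3 the Sertoli markers divided: Sox9, a transcription factor of Sertoli cell fate, was at 6.81 log2 CPM there and at 5.32 to 5.86 elsewhere, while the hormone receptor gene Fshr was at its lowest, 5.42, with 5.47 to 5.97 elsewhere. By the median over markers, Sertoli genes were 0.47 above their 6-library median in null replicate 3 and 0.19 below it in null replicate 2. The 5 peritubular markers summed to 2237 CPM in null replicate 2, against 1304 to 1680 in the other libraries, and Inhba and Fst were also highest there. Inhba did not keep that order elsewhere. Wild-type replicate 2, with the next highest sum of 1680, had 11.7 CPM of Inhba, and wild-type replicate 3, with a sum of 1428, had 15.6. Fst was at 14.3 and 6.97 CPM in these 2 libraries. The 5 red blood cell markers summed to 1477 to 1776 CPM in wild type and to 1255, 1179 and 717 in null replicates 1, 2 and 3, so that every null library was below every wild-type library. Of these 5, 0 passed the adjusted test, 4 had an unadjusted p below 0.05 in limma (3.47% of all tested genes) and 4 did not overlap (11.1% of all tested genes). The macrophage markers summed to 77.2 to 114 CPM in wild type and 66.3 to 91.4 in null. Their mean was lower in null for 5 of 5, as it was for 8042 of 16634 tested genes. Of the 5, 0 passed the adjusted test, 2 had an unadjusted p below 0.05 in limma and 2 did not overlap, beside the same 3.47% and 11.1%. The 7 Leydig markers summed to 552 CPM in null replicate 3 and 676 to 872 elsewhere, but that library was the lowest for only 3 of the 7. Germ cell markers summed to 1115 to 1252 in wild type and 1200 to 1316 in null. Of these 7, 2 (Kit and Sohlh1, both higher in null) had an unadjusted p below 0.05 in limma and did not overlap. The same held for 2 of 7 Leydig and 1 of 5 endothelial markers. Among 12 Sertoli markers 1 had such a p and 0 were separated, and among 5 peritubular markers 0 and 0. None passed the adjusted test, and the shares over all tested genes were again 3.47% and 11.1%. No marker of these lists was without reads in all 6 libraries. The part of cell makeup in the values of the 10 genes was not tested.

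**Figure D3:**
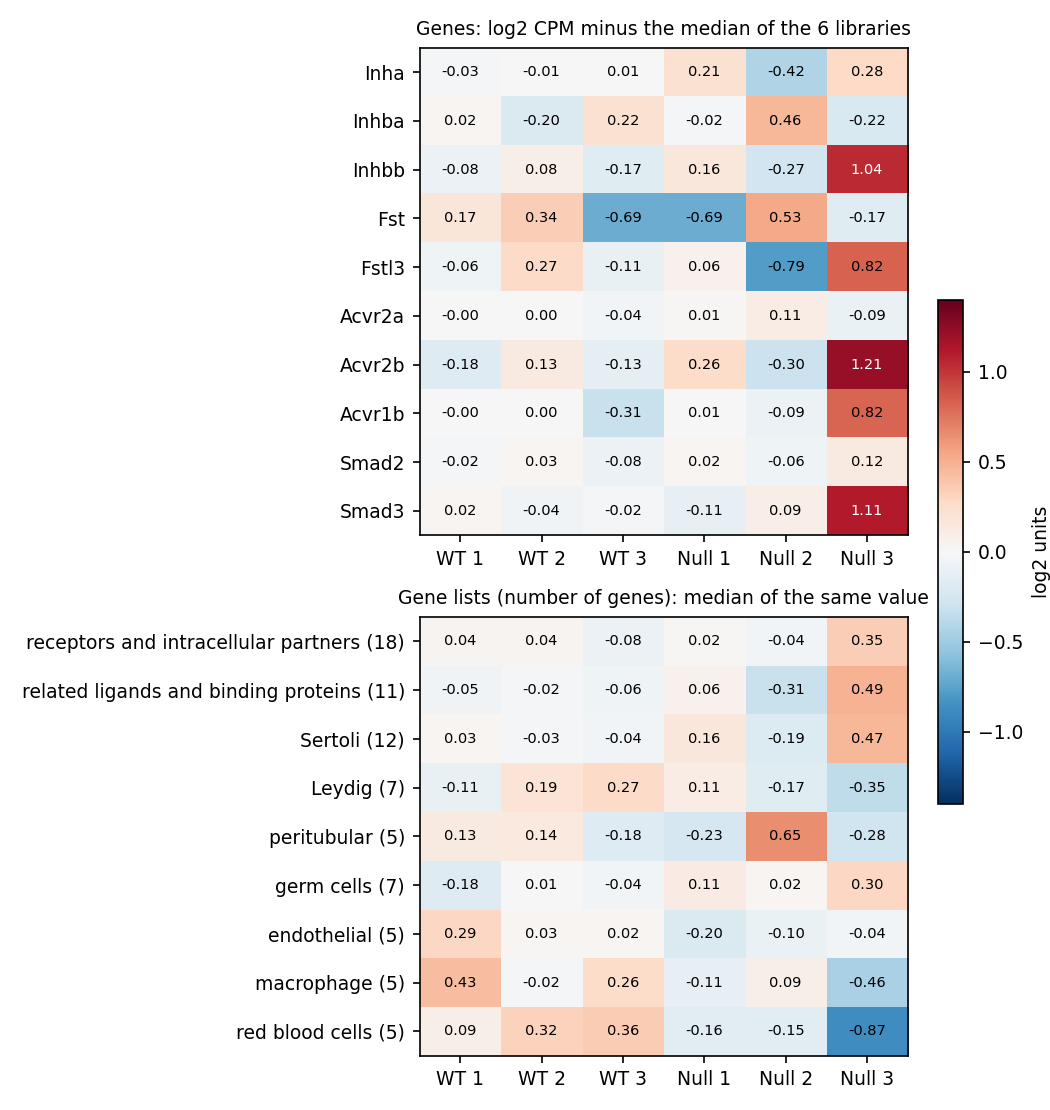
Each cell gives log2 CPM minus the median of the 6 libraries, for the 10 genes (above) and as the median over the genes of each list (below, number of genes in brackets), with red high and blue low. Null replicate 3 is the highest library for 7 genes, by at least 0.5 for Inhbb, Fstl3, Acvr2b, Acvr1b and Smad3, and null replicate 2 is the lowest for Inha, Inhbb, Fstl3 and Acvr2b and the highest for Inhba, Fst, Acvr2a and the peritubular markers.

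The genes whose levels followed Inha most closely over the 6 libraries, by Pearson r among 11653 other genes at a mean of at least 2 log2 CPM, were Myzap (r = 0.997), Csnk1g3 (0.990), Ube2s (0.989), Abat (0.983) and Lrrc8b (0.982). An r above 0.9 was reached by 152 genes, or 1.30%. For Acvr1b the nearest were Sik2, Mex3a, Rpap1, Nup210 and Tfeb, all at r of 0.998, and 2171 genes, or 18.6%, exceeded 0.9. Nup210, for example, was at 5.98 log2 CPM in null replicate 3 and at 4.34 to 4.89 in the other libraries. An r above 0.9 with Acvr1b, high in null replicate 3 alone, was thus common among genes. An r above 0.9 with Inha, high in null replicates 1 and 3 and low in null replicate 2, was rarer. These values describe 6 libraries and carry no test.

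Other genes of the pathway were taken from lists set with earlier results of these data known. Of 19 receptors, SMAD partners and regulators, 18 are in the table and 17 entered the test, of which 0 rose and 0 fell at an adjusted p below 0.05 in limma and 1 had an unadjusted p below 0.05 (3.47% of all tested genes), with a median difference of 0.11. Igsf1, which encodes a membrane protein once proposed to bind inhibin, had the smallest p. It was at 0.92, 0.94 and 1.25 log2 CPM in wild type and 0.42, 0.13 and 0.32 in null. Its difference of -0.75 (SE 0.24) did not pass (adjusted p = 0.755, limma). The genotypes did not overlap for 2 of the 17, Igsf1 and Zfyve9, the latter named after its values were seen, against 11.1% of all tested genes. Acvr1c, the ALK7 receptor gene, was at 2.24 in wild-type replicate 1 and at -0.67 to 0.05 in the other 5 libraries. The convertase gene Furin, whose product cleaves ligand precursors, was at 6.80 in null replicate 3 and 5.28 to 5.64 elsewhere, and Tgif2, a nuclear repressor of SMAD-driven transcription, at 6.33 and 5.38 to 5.71. Null replicate 3 was the highest library for 10 of the 17. Smad4, the shared partner of the receptor-regulated SMADs, differed by 0.17 (SE 0.12).

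Of 15 related ligands and binding proteins, 11 are in the table and 9 entered the test. Of these 9, 0 rose and 0 fell at an adjusted p below 0.05 in limma, which 0.00601% of all tested genes passed. At an unadjusted p below 0.05 the count was 0, against 3.47% of all tested genes. The median difference of the 9 was 0.26. The transforming growth factor gene Tgfb3 differed by 0.31 (SE 0.16) and Tgfb2 by -0.30 (SE 0.19). Wfikkn1, which encodes a secreted binding protein of related ligands, was at 0.60 to 0.72 log2 CPM in wild type and 0.75 to 1.30 in null, with a difference of 0.31 (SE 0.25) that did not pass, and it was the 1 gene of the 9 whose genotypes did not overlap (11.1% of all tested genes). Wfikkn2 differed by 0.26 (SE 0.22). Inhbc, which encodes the beta C subunit, and Nodal were too low to be tested. Inhba and Inhbb were thus the only beta subunit genes among the tested genes.

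Adult DMRT6 binding was then set beside these P8 values. It comes from 1 ChIP library, with no replicate check, and from another stage. Of the 10 genes, 2 had the middle of a peak no more than 10 kb from their 5' end, Acvr2b and Smad3, against 31.2% of tested genes. Peak scores are the authors' own, on a scale that the sources used here do not state, and run from 50.0 to 3100. The Smad3 peak spanned 63605877 to 63606164 on chromosome 9 (mm9), with its middle 219 bp upstream of the 5' end and a score of 168, above 77.4% of peaks. That of Acvr2b spanned 119311121 to 119311276, with its middle 364 bp upstream and a score of 66.9, above 16.0% of peaks. For both peaks the named gene had the nearest 5' end in the table. A further Acvr2b peak lay inside the gene, 13249 bp from its start, with a score of 94.6. With only peaks of a score of at least 100, the count was 1 of 10, Smad3, against 16.1% of tested genes.

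The sequence upstream of Smad3 is shown because a peak lay there, and those of Inhbb and Acvr1b because these genes shared the high level in null replicate 3 but had no peak within 10 kb. Each is the 250 bases before the RefSeq transcript start in GRCm38.p6, 5' to 3' along the gene, with CpG dinucleotides in capitals. The peaks are in mm9, and no position was carried between the builds. The windows are 63757995 to 63758244 on chromosome 9 (minus strand), 119422249 to 119422498 on chromosome 1 (minus strand) and 101173822 to 101174071 on chromosome 15 (plus strand).
Smad3: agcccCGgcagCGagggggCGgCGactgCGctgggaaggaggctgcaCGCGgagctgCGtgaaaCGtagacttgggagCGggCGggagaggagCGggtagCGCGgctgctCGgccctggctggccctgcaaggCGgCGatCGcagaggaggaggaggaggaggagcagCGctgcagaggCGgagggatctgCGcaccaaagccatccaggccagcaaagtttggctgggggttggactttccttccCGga
Inhbb: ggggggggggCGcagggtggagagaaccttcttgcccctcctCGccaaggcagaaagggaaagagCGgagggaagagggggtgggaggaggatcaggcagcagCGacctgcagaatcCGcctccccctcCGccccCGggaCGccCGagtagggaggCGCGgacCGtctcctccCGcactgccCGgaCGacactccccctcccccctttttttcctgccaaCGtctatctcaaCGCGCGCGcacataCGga
Acvr1b: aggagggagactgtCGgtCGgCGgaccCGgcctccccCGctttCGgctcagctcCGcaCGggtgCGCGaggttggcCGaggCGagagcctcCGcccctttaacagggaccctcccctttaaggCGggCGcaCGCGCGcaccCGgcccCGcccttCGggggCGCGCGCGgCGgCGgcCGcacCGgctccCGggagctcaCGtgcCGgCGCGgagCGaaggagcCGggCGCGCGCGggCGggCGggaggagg
The windows hold 22, 21 and 42 CpG dinucleotides, where the median over 32851 RefSeq windows is 6, and they are 69.2%, 68.0% and 78.8% G or C. The letters ACANTGT, the core of the site that DMRT proteins are known to bind, which reads the same on both strands, are in none of them, nor in the windows of Fstl3 and Acvr2a, and are in 6.47% of all windows. That says only that these letters are absent from these 250 bases. The Smad3 peak is 288 bases wide, so its window cannot hold all of it. No window was used for Acvr2b, the other gene with a peak within 10 kb.

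The other 8 genes had their nearest peak farther away. For Inha it lay 11885 bp upstream (chromosome 1, 75491629 to 75491905, score 226), just outside the 10 kb window and nearer to the 5' end of Obsl1, at 11260 bp. Acvr1b had a peak inside the gene 21876 bp from its start (101026276 to 101026589, score 134) and Acvr2a one 29454 bp from its start (48699012 to 48699154, score 82.6). The nearest peaks to Smad2 and Inhba lay 26659 and 31356 bp upstream, with scores of 195 and 99.0. Inhbb, Fstl3 and Fst had none within 50 kb, with the nearest at 55877, 86172 and 100754 bp. For Fst and Fstl3 another gene, Ndufs4 and Gzmm, lay closer to that peak. Within 50 kb the count was 7 of 10, against 64.2% of tested genes, and it was 4 of 10 over the gene body with 10 kb upstream, against 39.5%. A peak lay within 10 kb of 7 of the 18 receptors and partners in the table and of 6 of the 11 related ligands and binding proteins, where the share over tested genes was 31.2%. These list counts, unlike that share, include genes too low to be tested, among them Inhbc, which had a peak. Among the receptors and partners with a peak were Pmepa1 at 93 bp and Smad4 at 97 bp upstream of their 5' ends.

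**Figure D4:**
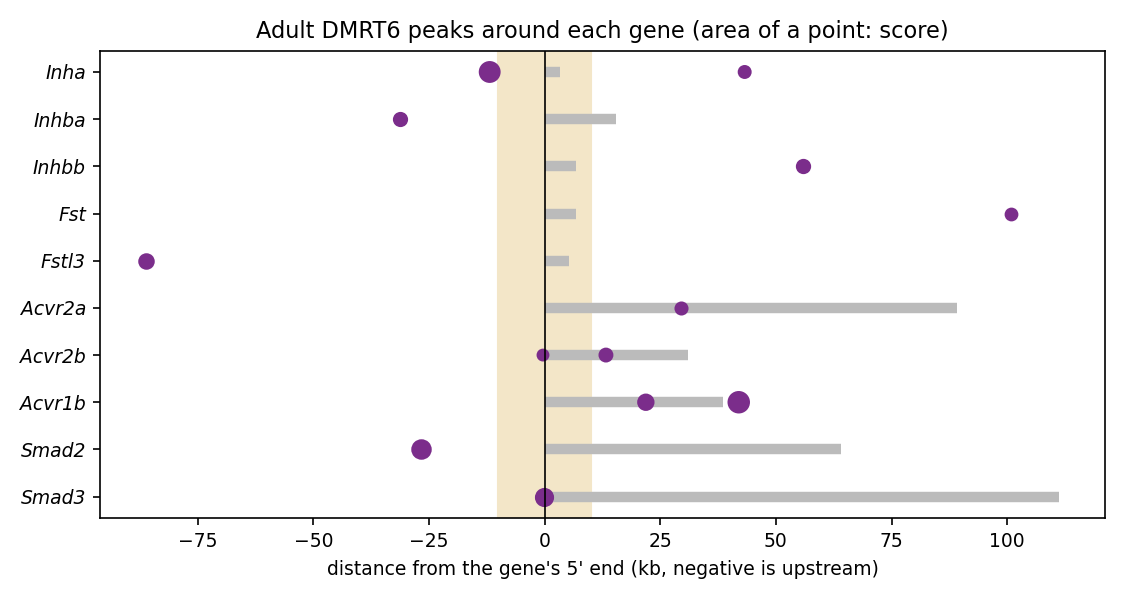
Adult DMRT6 peaks by distance from the 5' end of each gene in kb, negative upstream, with the gene body in grey, the 10 kb window shaded and point area in proportion to the score. Shown are peaks within 50 kb or inside the gene, or else the nearest. Peaks fall inside the shaded window only for Acvr2b and Smad3, at 364 and 219 bp.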

How the data were processed

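The authors deposited 1 expression table of log2 CPM per gene and library and 1 peak list with a score per peak. Among the tools in the submitters' processing notes are edgeR, Picard, Bowtie2 and STAR 2.3.0e, and the build is mm9, with no role stated for any. How reads were counted, against which annotation and whether by strand is not given in the sources used here. The peak file's name gives MACS 1.4 on reads without duplicates. Reads were recovered from the steps of the log2 CPM values (100% whole at a tolerance of 1e-06), and totals were 23.8 to 29.0 M.

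Genes with a mean of at least 0 log2 CPM were tested with limma-trend (limma 3.58.1, R 4.3.3), genotype as the only term and Benjamini-Hochberg adjustment over all of them. The fit was tested on data simulated with the same SD in both genotypes and no outlying library, so that test does not cover the spread seen here. Values are null minus wild type with model SE. A peak's middle was measured to the outer 5' coordinate of the gene in the table, in mm9, 1-based, and exons and alternative starts were not distinguished. RefSeq promoter windows were used for 5 of the 10 genes, and those of 3 others start inside the gene and were not used. All 10 genes and the gene lists were chosen with earlier results of these data known. Named from each pathway list were up to 4 genes of smallest p, plus Smad4, Sox9, Fshr, Kit, Sohlh1, Pmepa1 and genes next to peaks, which were picked after their values were seen. The nearest patterns are the 5 genes of highest r for Inha and for the gene of smallest p. Alternatives were another filter, scaling, pseudocount, library weights, voom, a replicate block, leaving out each library, and other peak windows and scores.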

Additional observations from a re-analysis of the deposited data

How the results depend on the processing

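None of the 10 genes was called in any of the 14 alternative fits, and 124 of 140 recomputed differences kept their sign. Among all genes 1 was called as reported, and 3 with no filter, quantile normalization or median centring. At a mean of at least 2 log2 CPM 0 were called (limma, 420 at an unadjusted p below 0.05). That filter leaves out Gm5859, at means of -1.65 in wild type and 3.00 in null, before the test. With library weights, whose estimation stopped before convergence, 136 were called. Leaving out 1 library gave 0 to 5 (0 without null replicate 1, with 678 at an unadjusted p below 0.05, 5 without null replicate 3 and 2 without wild-type replicate 2). With the replicate number as a block (replicate block) the count was 2. Same-numbered libraries of the 2 genotypes did not deviate together (r = -0.09, -0.22 and -0.04 over genes), and 0 of 3 wild-type libraries correlated best with their own number. So few correlations cannot decide whether a number stands for a shared litter or preparation, which the labels do not say. Of the 16 differences of the other sign, those from fits of all libraries were -0.0117 for Inha and -0.0243 for Acvr2a with median centring, -0.0255 for Acvr2a with quantile normalization, 0.0109 for Fstl3 with log2(CPM + 1) and -0.0793 for Smad3 with library weights. The rest came from leaving out 1 library, among them 0.41 for Fstl3 without null replicate 2 and 0.24 for Fst without null replicate 1. Library weights also gave -0.67 for Fst, 0.21 for Inha, 0.18 for Inhbb, 0.28 for Acvr2b and 0.10 for Acvr1b. In that fit, which also gave the 136 calls, null replicate 1 had a weight of 19.3 and null replicates 2 and 3 had 0.347 and 0.153, so 1 null library carried most of the null value. Leaving out 1 library gave -0.0930 to 0.26 for Inha, -0.14 to 0.21 for Inhba, -0.000526 to 0.65 for Inhbb, -0.37 to 0.24 for Fst, -0.40 to 0.41 for Fstl3, -0.0265 to 0.0728 for Acvr2a, 0.04 to 0.80 for Acvr2b, 0.06 to 0.52 for Acvr1b, 0.00284 to 0.0966 for Smad2 and 0.00258 to 0.62 for Smad3. The cause was not tested. The count of genes with a peak was 2 within 5 or 10 kb, 7 within 50 kb, 4 over the gene body and 10 kb upstream, and 1 at a score of at least 100. The 10 genes had 1347 to 42874 reads over the 6 libraries, and counting alone gives an SD of 0.02 to 0.10 log2 units.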
